A study of Homo sapiens with 32 samples.

Results

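The genes described here make sterols and fatty acids or control that synthesis. They are 33 protein-coding genes taken by symbol from the 60554 genes in the deposited count tables, 19815 of which are protein-coding: 5 that control the sterol regulatory element-binding proteins (SREBPs), 7 of the mevalonate steps, 11 between squalene and cholesterol, 1 sterol carrier, 8 of fatty acid supply, synthesis and desaturation, and 1 phosphatidate phosphatase. Each of the 33 was present in the tables of both cell lines and passed the filter on low counts in both. The study compared MCF10A, a non-tumourigenic human breast epithelial line, with MDA-MB-231, a triple-negative breast cancer line, to ask how low oxygen and mTOR inhibition change transcription and translation. Cells of each line were kept in normoxia (N), in hypoxia at 0.5% O2 for 24 hours (H), in normoxia with 2.5 µM PP242 for 3 hours (NPP), or in hypoxia with the same dose of PP242 for 3 hours (HPP). PP242 is an ATP-competitive inhibitor of the mTOR kinase, dissolved in dimethyl sulfoxide. Total mRNA (T) and the mRNA of the polysomal fractions of a sucrose gradient (P) were sequenced from the same cultures, with 2 biological replicates per group, which gave 16 libraries per line and 32 in all. Total counts per library ranged from 18340916 to 46032327, with a median of 34561484. MCF10A cells grew in medium with added EGF, hydrocortisone, cholera toxin and insulin and MDA-MB-231 cells did not, so line and medium cannot be told apart. Some markers went against the line labels: libraries labelled MCF10A held almost no CDH1, the epithelial cadherin, and more SPARC and TGFBI than those labelled MDA-MB-231, while keratin, ITGB4, AXL and ZEB1 levels went with the labels. The labels were kept as given, and every comparison between the lines rests on them.

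SREBP-1 and SREBP-2, encoded by SREBF1 and SREBF2, are transcription factors made as precursors in the endoplasmic reticulum membrane. When sterols are scarce the escort protein SCAP carries them to the Golgi, where they are cut and released to the nucleus to activate the genes of cholesterol and fatty acid synthesis. When sterols are plentiful the INSIG proteins hold SCAP back, and INSIG1 is itself a target of SREBPs. Several steps between squalene and cholesterol, and the desaturation of fatty acids, use molecular oxygen. mTORC1, a target of PP242, is known to promote SREBP activity and phosphorylates lipin-1, the product of LPIN1.

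The members called in both lines were INSIG1, INSIG2, MSMO1 and ELOVL6. For these the 250 bases before the transcription start of RefSeq are shown, so that the letters known to bind common transcription factors can be read beside their values. They were read from RefSeq promoters of GRCh38.p14 and are written 5′ to 3′ on the strand of the gene. The RefSeq starts lie inside the genes as GENCODE places them, which gives the gene positions used below, by 2 bases for MSMO1, 19 for INSIG2 and 584 for ELOVL6. The last part of the INSIG1 window, E-box included, and the whole ELOVL6 window are therefore within the GENCODE gene. Capitals mark matches on either strand to CCAAT, to ACGTG or to CACGTG (an E-box, which holds ACGTG on both strands). ACGTG is a form of the core letters bound by hypoxia-inducible factors, and other forms were not searched.

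INSIG1, chr7:155297628-155297877, plus strand: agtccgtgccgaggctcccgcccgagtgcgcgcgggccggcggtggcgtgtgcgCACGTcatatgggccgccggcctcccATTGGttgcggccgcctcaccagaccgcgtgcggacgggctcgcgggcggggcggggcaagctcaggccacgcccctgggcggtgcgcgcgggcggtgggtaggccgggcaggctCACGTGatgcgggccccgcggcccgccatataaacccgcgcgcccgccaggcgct

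INSIG2, chr2:118088221-118088470, plus strand: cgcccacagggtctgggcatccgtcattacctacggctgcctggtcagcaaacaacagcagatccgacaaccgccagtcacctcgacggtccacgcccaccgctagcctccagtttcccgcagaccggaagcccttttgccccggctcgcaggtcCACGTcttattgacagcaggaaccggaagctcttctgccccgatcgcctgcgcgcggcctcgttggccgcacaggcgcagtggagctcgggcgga

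MSMO1, chr4:165327419-165327668, plus strand: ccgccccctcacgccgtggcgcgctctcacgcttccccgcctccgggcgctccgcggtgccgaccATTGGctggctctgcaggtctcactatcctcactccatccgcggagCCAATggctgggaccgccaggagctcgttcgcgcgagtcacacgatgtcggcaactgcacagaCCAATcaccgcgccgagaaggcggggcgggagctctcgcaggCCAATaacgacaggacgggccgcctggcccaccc

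ELOVL6, chr4:110198616-110198865, minus strand: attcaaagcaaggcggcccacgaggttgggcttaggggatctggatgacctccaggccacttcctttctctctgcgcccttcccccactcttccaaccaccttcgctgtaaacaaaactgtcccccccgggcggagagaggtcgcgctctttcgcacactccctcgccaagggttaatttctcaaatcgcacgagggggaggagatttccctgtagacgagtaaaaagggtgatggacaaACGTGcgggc

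The MSMO1 sequence held 4 CCAAT matches, starting 185, 139, 76 and 34 bases before the RefSeq start, and no ACGTG. INSIG2 held ACGTG letters 95 bases before its RefSeq start and no CCAAT, and ELOVL6 held ACGTG 10 bases before its RefSeq start. INSIG1 held CCAAT 170 bases before its RefSeq start, ACGTG 196 bases before it and the E-box 55 bases before it. Of the 33 members, 29 had an entry among the 35116 promoters, and 20 of these 29 held CCAAT, which stood in 37.0% of all genes with a promoter. ACGTG stood in 8 of the 29 members against 21.7% of all genes, and CACGTG in 3 against 7.73%. The sterol element searched, TCACNCCAC, was found in 1 member, SREBF2, and in 1.09% of all genes. A match describes the letters of these windows and is neither a bound site nor a cause.

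In HPP the 2 INSIG genes and MSMO1 were higher and ELOVL6 was lower than in normoxia in both lines, and most other members did not pass the test. Levels are given as CPM, read counts relative to library size, scaled within each line by TMM factors, and differences as log2 fold changes ± SE from edgeR's quasi-likelihood test over all 16 libraries of a line. A gene is called where the Benjamini-Hochberg adjusted p over all tested protein-coding genes was under 0.05. In total mRNA of MCF10A cells 3 members rose and 1 fell in HPP, which is 12.1% of the 33 beside 14.9% of all 13124 tested genes. In their polysomal mRNA 6 members rose and none fell, 18.2% beside 22.2% of all genes. In MDA-MB-231 cells 3 members rose and 1 fell in T, 12.1% beside 13.2% of the 13510 tested genes, and 3 rose and 2 fell in P, 15.2% beside 19.4%. With the replicate number as a block SREBF1, LSS, STARD4 and ACACA were also called in MCF10A HPP T. The share of all genes called with the block is not given here, so that count is not set against all genes. In the fits without the block the members were thus called at about the rate of all genes. Their median log2 fold change was 0.38 in MCF10A T and 0.19 in MCF10A P, where the median of all genes was -0.01 and -0.04. It was 0.25 in MDA-MB-231 T and 0.14 in MDA-MB-231 P, beside -0.05 and 0.01 for all genes. These are bulk libraries, in which a lower level per cell and fewer cells with the mRNA cannot be told apart, and P libraries give each mRNA relative to the others on polysomes, not the amount of polysomes.

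**Figure D1:**
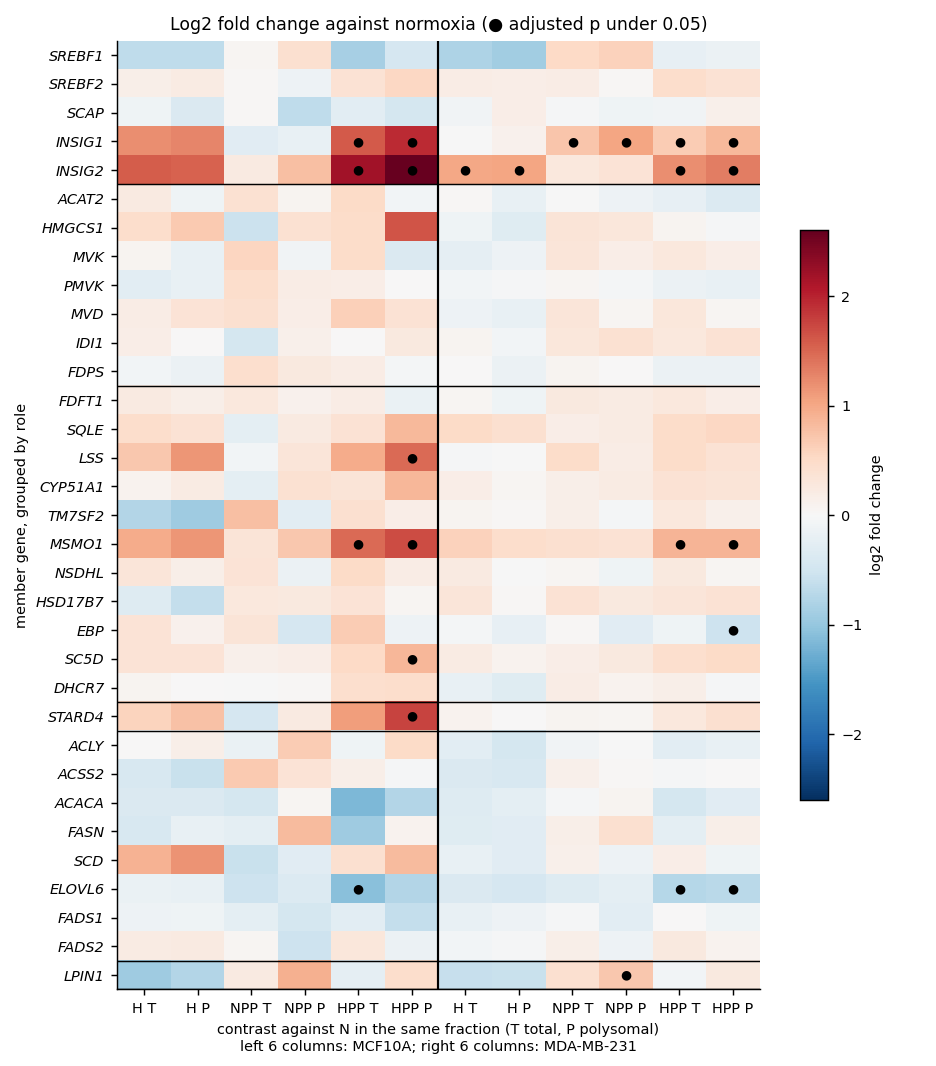
Heat map of the log2 fold changes of the 33 members (rows, by role) against normoxia in H, NPP and HPP, for total and polysomal mRNA of each line (columns), with marked cells at an adjusted p under 0.05. INSIG2 in HPP has the highest values in both lines, up to 2.6 in MCF10A polysomal mRNA, and the fatty acid rows hold the ELOVL6 decreases.

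**Figure D2:**
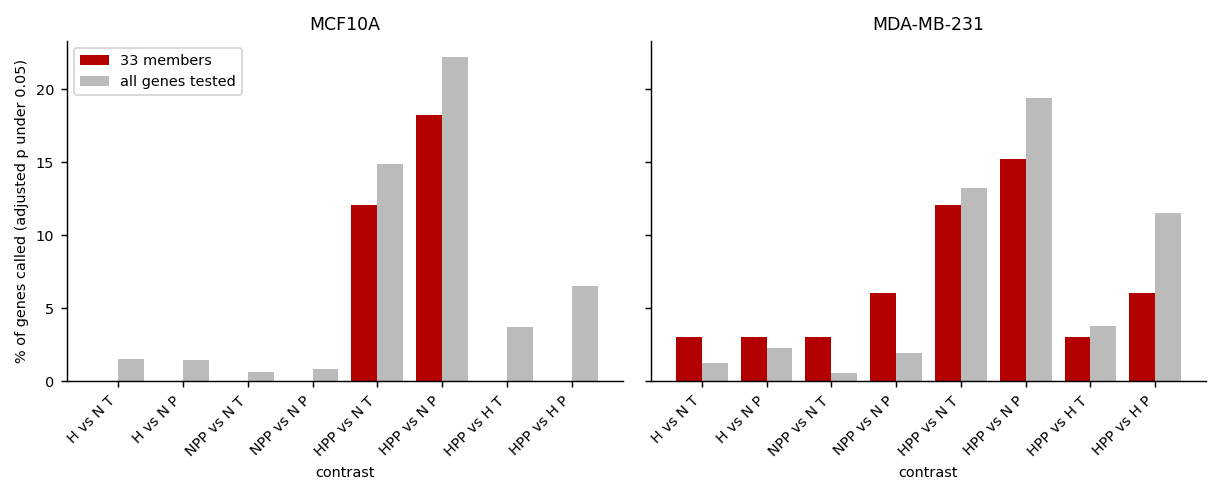
Bars give the percentage of the 33 members called in each comparison of a treatment with N, and of HPP with H, beside the percentage of all tested genes called, on an axis from 0. The members' share in HPP, from 12.1% to 18.2%, lies close to and below that of all genes, from 13.2% to 22.2%.

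INSIG2 (ENSG00000125629, GRCh38 chr2:118088452-118110997), which retains SCAP in the endoplasmic reticulum, had the largest increases of any member in H and in HPP. In total mRNA of MCF10A cells its replicates stood at 17.1 and 13.6 CPM in N, at 46.1 and 44.7 in H, at 23.3 and 12.6 in NPP and at 88.3 and 50.4 in HPP. In polysomal mRNA they stood at 14.7 and 13.5 CPM in N, 43.7 and 37.5 in H, 23.7 and 24.9 in NPP, and 104.9 and 65.8 in HPP. All 4 hypoxic libraries of each fraction lay above all 4 normoxic ones in this line. The HPP increase was 2.18 ± 0.36 (log2, 4.53-fold, adjusted p = 0.00228) in T and 2.6 ± 0.36 (6.05-fold, adjusted p = 0.000779) in P. Hypoxia alone gave 1.57 ± 0.35 in T and 1.52 ± 0.35 in P, with adjusted p of 0.0535 and 0.061, just outside the threshold. Same-numbered total mRNA libraries of this line deviated together, and with the replicate number as a block INSIG2 in H T gave 1.59 (adjusted p = 0.0066), which passed. With that block INSIG2 also passed in H P (1.52, adjusted p = 0.00899). DESeq2 called it in H in both T and P (adjusted p = 0.000396 and 0.000618). In MDA-MB-231 cells INSIG2 stood at 37.5 and 29.7 CPM in N, 61.6 and 73.3 in H, 44.1 and 37.0 in NPP, and 86.3 and 68.8 in HPP in total mRNA. Its polysomal levels were 39.4 and 29.2 CPM in N, 70.2 and 70.0 in H, 45.3 and 42.5 in NPP, and 87.2 and 84.7 in HPP. Here too every hypoxic library lay above every normoxic one. INSIG2 rose in MDA-MB-231 H by 1.00 ± 0.18 in T (adjusted p = 0.0104) and 1.03 ± 0.18 in P (adjusted p = 0.00624), and in HPP by 1.2 ± 0.18 in T (adjusted p = 0.000801) and 1.33 ± 0.18 in P (adjusted p = 0.000181). All 4 HPP calls of INSIG2 held when any library of the groups compared was left out, while both H calls in MDA-MB-231 cells were lost without replicate 2 of N or of H.

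INSIG1 (ENSG00000186480, chr7:155297776-155310235), the SREBP-induced member of the pair, differed between the lines in its normoxic level. The treatments in which it passed the test were not the same in the lines, but the difference in its response between them did not pass for any treatment. In MCF10A total mRNA it stood at 22.8 and 24.2 CPM in N, 48.4 and 60.8 in H, 19.2 in both replicates of NPP, and 42.5 and 100.6 in HPP. Its polysomal values were 21.2 and 14.9 CPM in N, 41.5 and 45.3 in H, 16.2 and 15.5 in NPP, and 43.3 and 94.4 in HPP. The hypoxic libraries were all above the normoxic ones in this line, and the HPP replicates lay far apart. The HPP increase was 1.60 ± 0.42 in T (adjusted p = 0.024) and 1.93 ± 0.42 in P (adjusted p = 0.00776). Without HPP replicate 2 it was 0.85 in T and 1.26 in P, and neither passed. The T call was also lost without either N replicate, and the P call without N replicate 2. In H the differences of 1.21 ± 0.41 in T and 1.27 ± 0.41 in P had adjusted p of 0.249 and 0.194. In MDA-MB-231 total mRNA INSIG1 stood at 117.8 and 128.6 CPM in N, 136.8 and 108.8 in H, 217.6 and 186.5 in NPP, and 209.9 and 177.5 in HPP. Its polysomal levels there were 97.1 and 98 CPM in N, 104.3 and 105.8 in H, 188.9 and 205.9 in NPP, and 178.2 and 169.6 in HPP. In this line the libraries with PP242 were all above those without it. INSIG1 rose in MDA-MB-231 NPP by 0.71 ± 0.14 in T (adjusted p = 0.0381) and 1.02 ± 0.14 in P (adjusted p = 0.00144), and in HPP by 0.65 ± 0.14 in T (adjusted p = 0.00961) and 0.83 ± 0.14 in P (adjusted p = 0.00146). Its difference in H was -0.0044 ± 0.14 in T and 0.11 ± 0.14 in P. The P calls held without any library of the groups compared, the NPP call in T was lost in each such fit, and the HPP call in T was lost without HPP replicate 1 or either N replicate.

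**Figure D3:**
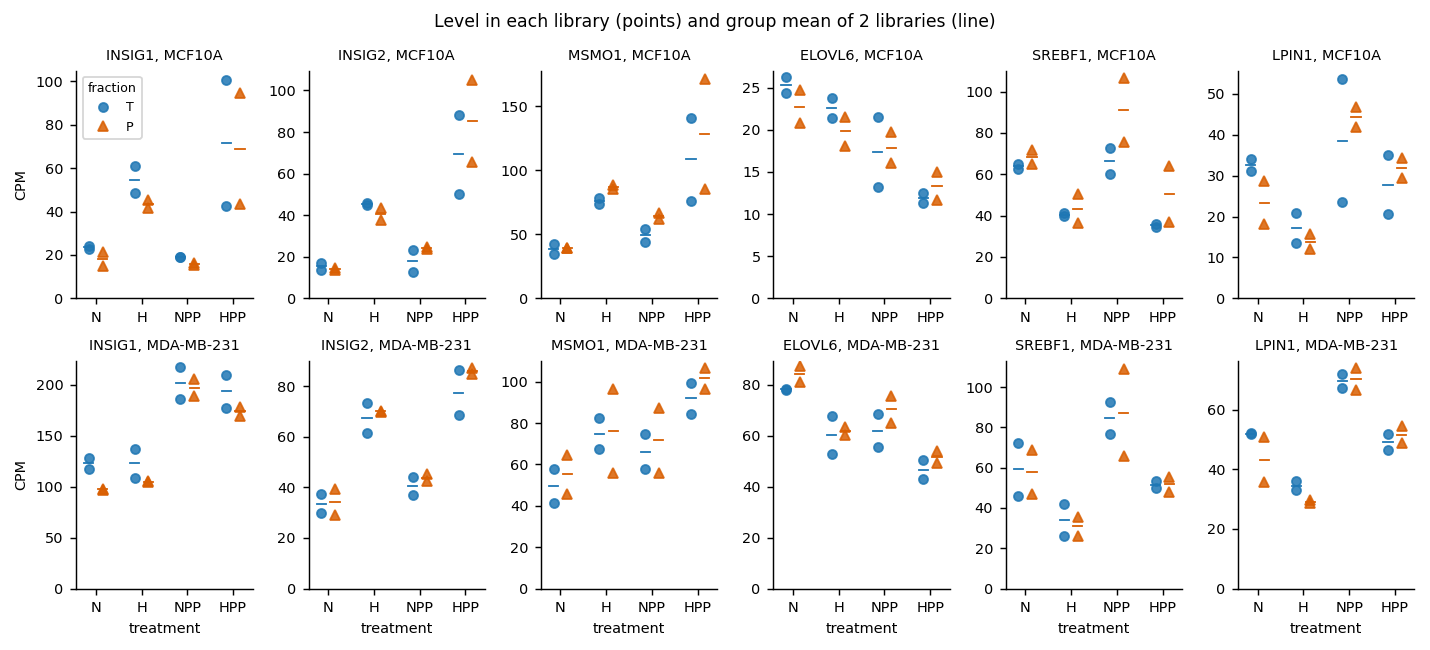
CPM in every library of the 4 members called in both lines and of SREBF1 and LPIN1, by line, fraction and treatment, with each point a replicate and each short line the mean of a group. INSIG2 separates the hypoxic from the normoxic libraries in both lines, whereas INSIG1 separates hypoxic libraries in MCF10A cells and PP242-treated libraries, from 169.6 CPM upwards, in MDA-MB-231 cells.

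The other control genes, SREBF1, SREBF2 and SCAP, did not pass the test in any comparison of a treatment with normoxia, although SREBF1 passed in 3 of them once the replicate number was added as a block. SREBF1 (ENSG00000072310, chr17:17810399-17837002) stood at 65.1 and 62.7 CPM in N, 41.2 and 39.9 in H, 60.2 and 72.7 in NPP, and 34.3 and 36.2 in HPP in MCF10A total mRNA. Its MCF10A polysomal levels were 71.7 and 65.1 CPM in N, 36.4 and 50.3 in H, 106.5 and 75.8 in NPP, and 36.9 and 64.1 in HPP. Both hypoxic groups lay below N in both fractions of this line. In MDA-MB-231 total mRNA SREBF1 stood at 72.5 and 46 CPM in N, 42.2 and 25.9 in H, 92.4 and 76.9 in NPP, and 49.8 and 53.3 in HPP, and in polysomal mRNA at 69.0 and 46.9 in N, 35.6 and 26.1 in H, 108.9 and 65.7 in NPP, and 55.6 and 48.0 in HPP. Only its H replicates lay below those of N there. Its difference in H was -0.66 ± 0.29 in both fractions of MCF10A cells (adjusted p = 0.425 and 0.365), and -0.80 ± 0.29 in T and -0.91 ± 0.29 in P of MDA-MB-231 cells (adjusted p = 0.246 and 0.129). In HPP T of MCF10A cells its difference had an adjusted p of 0.0665. With the block these values were -0.86 in MCF10A HPP T (adjusted p = 0.0422), -0.80 in MDA-MB-231 H T (adjusted p = 0.0428) and -0.90 in MDA-MB-231 H P (adjusted p = 0.0159), the last of which DESeq2 also called (adjusted p = 0.0314). Same-numbered libraries did not all deviate together in MDA-MB-231 cells. SREBF2 (ENSG00000198911, chr22:41833105-41907306) ranged in N from 53.2 to 73.2 CPM in MCF10A cells and from 79.9 to 104.2 in MDA-MB-231 cells. Its HPP levels in T were 77.6 and 95.0 CPM in MCF10A cells and in P 123.4 and 116.1 in MDA-MB-231 cells, above both N libraries of the same fraction and line. In MCF10A P its HPP levels of 66.4 and 117.1 CPM overlapped those of N, 53.2 and 73.2, and in MDA-MB-231 T both HPP libraries lay above N. Its HPP differences ran from 0.38 to 0.54 with adjusted p of at least 0.195. SCAP (ENSG00000114650, chr3:47413681-47477126) stood in T at 51.2 and 83.9 CPM in N and 44.6 and 66.8 in HPP of MCF10A cells, and at 52.6 and 66.4 in N and 46.2 and 65.7 in HPP of MDA-MB-231 cells, and these groups overlapped in both lines. In P it stood at 95.6 and 77.4 CPM in N and 55.7 and 70.7 in HPP of MCF10A cells, where HPP lay below N and the difference was -0.45 ± 0.35 (adjusted p = 0.383), and at 53.6 and 59.6 in N and 67.4 and 57.6 in HPP of MDA-MB-231 cells, where they overlapped.

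None of the 7 genes of the mevalonate steps was called by edgeR in any comparison of a treatment with normoxia, and in HPP DESeq2 called 1, HMGCS1 in MCF10A P, which was also the 1 with an unadjusted p under 0.05. These enzymes turn acetyl-CoA into farnesyl diphosphate. Their log2 fold changes in HPP ran from -0.38 to 1.64 in MCF10A P and from -0.35 to 0.38 in MDA-MB-231 P. The value at the upper end was that of HMGCS1 (ENSG00000112972, chr5:43287470-43313512), the cytosolic HMG-CoA synthase. HMGCS1 stood at 15.6 and 20.9 CPM in N and at 19.7 and 94.4 in HPP of MCF10A polysomal mRNA, and the difference of 1.64 ± 0.66 had an adjusted p of 0.0959. The groups overlapped, and the high mean came from HPP replicate 2. In total mRNA HMGCS1 stood at 23.0 and 17.5 CPM in N and 24.2 and 32.2 in HPP of MCF10A cells. In MDA-MB-231 polysomal mRNA it stood at 41.9 and 64.4 CPM in N and 51.1 and 53.0 in HPP. HMGCS1 shares 37.7% of its exon bases with an antisense RNA listed in the tables, and in unstranded libraries such reads cannot be told apart.

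Of the 11 genes between squalene and cholesterol, MSMO1 rose in both lines. MSMO1 (ENSG00000052802, chr4:165327667-165343164) encodes the methylsterol oxidase that begins the removal of the methyl groups at carbon 4 and uses oxygen. In MCF10A total mRNA it stood at 42.7 and 34.9 CPM in N, 73.5 and 78.3 in H, 54.3 and 44.1 in NPP, and 75.7 and 141.1 in HPP. In polysomal mRNA it stood at 39.1 and 39.5 CPM in N, 88.4 and 85.1 in H, 66.3 and 61.8 in NPP, and 85.5 and 170.9 in HPP. Every hypoxic library was above every normoxic one in this line. The HPP increase was 1.48 ± 0.35 in T (adjusted p = 0.0145) and 1.71 ± 0.35 in P (adjusted p = 0.00569), and without HPP replicate 2 it was 0.97 and 1.12 and did not pass. The T call was also lost without either N replicate, and the P call without N replicate 1. In MDA-MB-231 total mRNA MSMO1 stood at 41.4 and 57.9 CPM in N, 82.3 and 67.2 in H, 57.7 and 74.7 in NPP, and 99.4 and 84.6 in HPP. In polysomal mRNA of this line it stood at 45.9 and 64.5 CPM in N, 96.6 and 55.7 in H, 55.9 and 87.5 in NPP, and 96.5 and 106.8 in HPP. HPP lay above N in both fractions and the other groups overlapped N in P. The HPP increase was 0.89 ± 0.28 in T (adjusted p = 0.0456) and 0.88 ± 0.27 in P (adjusted p = 0.0361), and the T call was lost whichever library of the groups compared was left out. The P call was lost in 3 of 4 such fits, without N replicate 1 or either HPP replicate, with adjusted p up to 0.188.

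LSS and SC5D rose in HPP in the polysomal mRNA of MCF10A cells. LSS (ENSG00000160285, chr21:46188141-46228824), which closes the sterol rings, stood there at 15.9 and 35.5 CPM in N, 35.3 and 78.0 in H, 32.6 and 31.4 in NPP, and 54.1 and 88.4 in HPP. HPP lay above N, although the N replicates differed more than 2-fold, and the increase was 1.47 ± 0.43 (adjusted p = 0.0291). This call was lost without N replicate 1 (1.08, adjusted p = 0.176) and without HPP replicate 2 (1.07, adjusted p = 0.214). In total mRNA its HPP difference was 0.97 ± 0.42 (adjusted p = 0.15), and with the replicate block 0.96 (adjusted p = 0.0263), which passed. SC5D (ENSG00000109929, chr11:121292681-121313410), an oxygen-using sterol desaturase, stood in MCF10A polysomal mRNA at 16.9 and 19.5 CPM in N, 21.9 and 24.6 in H, 22.0 and 19.0 in NPP, and 25.2 and 41.1 in HPP. It rose there by 0.87 ± 0.27 (adjusted p = 0.0417), and by 0.47 without HPP replicate 2, which did not pass, and the call was also lost without either N replicate, with no filter and with the length offset. In MDA-MB-231 cells the HPP differences were 0.38 ± 0.24 for LSS and 0.50 ± 0.17 for SC5D in P, with adjusted p of 0.294 and 0.0554. SC5D passed there with DESeq2 (0.47, adjusted p = 0.0443), the replicate block (0.50, adjusted p = 0.0491) and no filter on low counts (0.60, adjusted p = 0.0104). EBP (ENSG00000147155, chrX:48521799-48528716), a sterol isomerase, fell in HPP in MDA-MB-231 polysomal mRNA. It stood there at 81.4 and 62.8 CPM in N, 71.0 and 53.4 in H, 59.3 and 58.7 in NPP, and 51.9 and 47.0 in HPP. HPP lay below N, and the difference was -0.54 ± 0.17 (adjusted p = 0.0384). Without N replicate 1 it was -0.28 (adjusted p = 0.382), and the call was also lost without either HPP replicate and with no filter on low counts. In total mRNA, where the N replicates stood at 43.8 and 50.4 CPM and the HPP replicates at 43.7 and 43.3, it was -0.11 ± 0.17. In the GENCODE annotation used here for positions, which is later than the one the authors counted with, EBP shares 36.4% and CYP51A1 68.2% of exon bases with another protein-coding gene on the same strand, and how reads there were counted was not tested. The remaining genes of this group, FDFT1, SQLE, CYP51A1, TM7SF2, NSDHL, HSD17B7 and DHCR7, were not called by edgeR in either line, with HPP differences in P from -0.17 to 0.86.

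The 7 members that use oxygen as a substrate were SQLE, CYP51A1, MSMO1, SC5D, SCD, FADS1 and FADS2. In MCF10A cells in HPP, MSMO1 rose in T, and MSMO1 and SC5D rose in P. In MDA-MB-231 cells MSMO1 rose in both fractions and edgeR called no other. SQLE, the squalene epoxidase, had HPP differences in P of 0.83 ± 0.31 in MCF10A and 0.55 ± 0.24 in MDA-MB-231 cells, and CYP51A1, the lanosterol demethylase, of 0.86 ± 0.32 and 0.34 ± 0.16, none of which passed after adjustment in edgeR (adjusted p = 0.0761, 0.119, 0.0745 and 0.144). CYP51A1 in MCF10A P passed with DESeq2 (0.88, adjusted p = 0.0314) and with the replicate block (0.85, adjusted p = 0.0268). FADS1 went the other way in MCF10A P, at 59.3 and 76.0 CPM in N and 38.9 and 48.9 in HPP. In MDA-MB-231 P its N and HPP libraries overlapped, as did those of SCD and FADS2 in P of both lines. FADS1, SCD and FADS2 were not called by edgeR in HPP.

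STARD4 (ENSG00000164211, chr5:111496033-111512590), which carries sterols between membranes, rose in HPP in MCF10A polysomal mRNA. It stood there at 12.4 and 18.8 CPM in N, 24.5 and 28.3 in H, 18.8 and 17.7 in NPP, and 45.2 and 60.3 in HPP. The hypoxic libraries were all above the normoxic ones, and the HPP increase was 1.76 ± 0.56 (adjusted p = 0.0436). This call was lost whichever library of the groups compared was left out, with adjusted p from 0.0721 to 0.198. In MCF10A total mRNA STARD4 stood at 29.8 and 20.7 CPM in N and 72.8 and 35.0 in HPP, and in MDA-MB-231 polysomal mRNA at 66.3 and 83.5 in N and 102.8 and 96.1 in HPP, differences of 1.10 ± 0.55 and 0.41 ± 0.17 that did not pass. With the replicate block the MCF10A T difference was 1.00 (adjusted p = 0.0497).

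Among the 8 genes of fatty acid supply, synthesis and desaturation, ELOVL6 was called lower and none was called higher. ELOVL6 (ENSG00000170522, chr4:110045846-110199199) encodes the elongase that extends palmitate and palmitoleate. In MCF10A total mRNA it stood at 24.4 and 26.3 CPM in N, 23.8 and 21.3 in H, 21.5 and 13.2 in NPP, and 12.5 and 11.3 in HPP. In MCF10A polysomal mRNA it stood at 20.8 and 24.7 CPM in N, 18 and 21.6 in H, 16 and 19.8 in NPP, and 11.7 and 15.0 in HPP. HPP was the lowest group in both fractions. Its difference was -1.09 ± 0.27 in T (adjusted p = 0.0208), lost whichever library of the groups compared was left out, and -0.77 ± 0.27 in P (adjusted p = 0.0626), which passed with DESeq2 (adjusted p = 0.024), the replicate block (adjusted p = 0.019) and the length offset (adjusted p = 0.00748). In MDA-MB-231 total mRNA ELOVL6 stood at 78.4 and 78.0 CPM in N, 52.8 and 67.8 in H, 68.4 and 55.6 in NPP, and 50.3 and 43.0 in HPP. In polysomal mRNA of this line it stood at 81.1 and 87.2 CPM in N, 60.3 and 63.3 in H, 65.2 and 75.5 in NPP, and 54.0 and 49.4 in HPP. All 3 treatments lay below N in both fractions of MDA-MB-231 cells, and the HPP difference was -0.74 ± 0.16 in T (adjusted p = 0.0072) and -0.70 ± 0.15 in P (adjusted p = 0.00648). Both calls were lost without HPP replicate 2, with adjusted p of 0.117 in T and 0.0691 in P.

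ACACA (ENSG00000278540, chr17:37084992-37406836), the acetyl-CoA carboxylase that makes malonyl-CoA, stood in MCF10A total mRNA at 28.5 and 28.2 CPM in N, 26.1 and 17.8 in H, 28 and 13.3 in NPP, and 15.6 and 9.47 in HPP. HPP lay below N there, with a difference of -1.17 ± 0.43 (adjusted p = 0.0903), and with the replicate block -1.24 (adjusted p = 0.0111). FASN, the fatty acid synthase, stood at 136.5 and 109.4 CPM in N and 69.5 and 59.8 in HPP of the same fraction, and at 169.1 and 175.4 in N and 103.2 and 184.4 in HPP of MDA-MB-231 total mRNA, so the groups overlapped in MDA-MB-231 cells. SCD, which makes monounsaturated fatty acids with oxygen, stood in MCF10A total mRNA at 76.2 and 92.0 CPM in N and 160.5 and 155.5 in H, and in MDA-MB-231 total mRNA at 234.3 and 221.8 in N and 249.0 and 148.1 in H. Neither gene passed the test in any comparison with normoxia.

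LPIN1 (ENSG00000134324, chr2:11677595-11827409) encodes lipin-1, which makes diacylglycerol from phosphatidate. In MDA-MB-231 polysomal mRNA it stood at 35.7 and 50.8 CPM in N, 28.5 and 29.7 in H, 66.5 and 74.1 in NPP, and 54.5 and 48.7 in HPP. In total mRNA of this line it stood at 51.7 and 52.0 CPM in N, 35.9 and 32.9 in H, 67.3 and 71.8 in NPP, and 51.9 and 46.4 in HPP. LPIN1 was lowest in H and highest in NPP in both fractions. Its NPP increase was 0.70 ± 0.16 in P (adjusted p = 0.0318) and its NPP difference 0.42 ± 0.16 in T (adjusted p = 0.332), and the H differences of -0.59 ± 0.16 in T and -0.57 ± 0.16 in P had adjusted p of 0.0974 and 0.0773. DESeq2 called both H differences of LPIN1, -0.58 in T (adjusted p = 0.0221) and -0.60 in P (adjusted p = 0.0117). The NPP call in P was lost without N replicate 1 or either NPP replicate. MCF10A polysomal levels were 18.1 and 28.7 CPM in N, 12.1 and 15.6 in H, 41.8 and 46.8 in NPP, and 29.5 and 34.3 in HPP, where no comparison with normoxia passed in edgeR. With the length offset LPIN1 passed in MCF10A NPP P (0.84, adjusted p = 0.0442) and H T (-0.97, adjusted p = 0.0254).

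Hypoxia alone and PP242 alone called few members. In MCF10A H the edgeR test called 0 members in T and 0 in P, beside 1.54% and 1.49% of all genes. At an unadjusted p under 0.05 there were 5 in T and 7 in P, beside 1426 and 1636 of the 13124 genes. DESeq2 called 1 in each, INSIG2. With the replicate block 1 was called in MCF10A H T, INSIG2, and 2 in MCF10A H P, INSIG2 and LSS (1.14, adjusted p = 0.0462). In MCF10A HPP T the block called 8 in place of 4, with SREBF1, LSS, STARD4 and ACACA added. The share of all genes called with the block or by DESeq2 is not given here. In MDA-MB-231 H the edgeR test without the block called 1 member, INSIG2, in each fraction, 3.03% beside 1.27% of all genes in T and 2.29% in P. With the block SREBF1 was also called there in each fraction (adjusted p = 0.0428 in T and 0.0159 in P). In MCF10A NPP edgeR called 0 members in T and 0 in P, beside 0.648% and 0.823% of all genes. Unadjusted p was under 0.05 for 0 in T and 2 in P, beside 1252 and 1752 of the 13124 genes. DESeq2 called 0 in each. In MDA-MB-231 NPP 1 member was called in T, INSIG1, 3.03% beside 0.555%, and 2 in P, INSIG1 and LPIN1, 6.06% beside 1.95%.

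PP242 was also compared within hypoxia, with H and not N as the control. In MCF10A cells HPP against H called 0 members in T and 0 in P by edgeR, beside 3.74% and 6.5% of all genes. There were 2 and 3 at an unadjusted p under 0.05, beside 2078 and 2752 of the 13124 genes, and 1 and 2 by DESeq2. The replicate block called 1 in T, ELOVL6 (-0.92, adjusted p = 0.0272), and 2 in P, INSIG2 (1.05, adjusted p = 0.0189) and LPIN1 (1.21, adjusted p = 0.0166), and DESeq2 called the same genes. In MDA-MB-231 cells INSIG1 rose in T by 0.66 ± 0.14 (adjusted p = 0.0222), 1 member or 3.03% beside 3.78% of all genes. In P, INSIG1 rose by 0.73 ± 0.14 (adjusted p = 0.00563) and LPIN1 by 0.83 ± 0.16 (adjusted p = 0.00458), 2 members or 6.06% beside 11.5%. Both P calls were lost without HPP replicate 1, and the T call without H replicate 2 or either HPP replicate. With the replicate block SREBF1 (0.77, adjusted p = 0.0123) and ACSS2 (0.42, adjusted p = 0.0366) were also called in MDA-MB-231 P. The comparisons with normoxia share the N libraries, and HPP against H shares the HPP libraries with HPP against N.

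Translational efficiency (Te), tested as the change in P beyond the change in T, did not pass for any member. In MCF10A cells 0 members were called by edgeR in each of H, NPP and HPP, with 0 at an unadjusted p under 0.05 and 0 by DESeq2, and no gene at all was called, 0% of 13124. Unadjusted p was under 0.05 for 23, 296 and 433 of these genes in H, NPP and HPP. In MDA-MB-231 cells edgeR also called 0 members in each treatment, with 0 at an unadjusted p under 0.05 and 0 by DESeq2, where 0.0148% of all genes were called in H, 0.34% in NPP and 0.696% in HPP. Unadjusted p was under 0.05 there for 180, 295 and 454 of the 13510 genes. The Te differences of the members in HPP ran from -0.85 to 1.16 in MCF10A and from -0.43 to 0.41 in MDA-MB-231 cells. The Te difference of INSIG2 in HPP was 0.42 in MCF10A cells and 0.13 in the tumour line, and that of INSIG1 was 0.33 and 0.18, beside T differences of 2.18, 1.2, 1.60 and 0.65. A p that misses the threshold does not show that loading was the same, and T and P libraries of a culture share its cells. In the same libraries 12 mRNAs of the translation apparatus with a 5′ terminal oligopyrimidine tract, whose loading is known to need mTOR, were read as a reference: in MDA-MB-231 P, 6 of 12 fell in NPP and 11 of 12 in HPP, where 1.19% and 9.73% of all genes fell. In MCF10A P, 9 of 12 fell in HPP, where 11.9% of all genes fell. In MCF10A NPP P edgeR called 0 of 12, and 0.351% of all genes fell. Of the 12, 10 had an unadjusted p under 0.05, beside 1752 of the 13124 genes, and DESeq2 called 3.

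**Figure D4:**
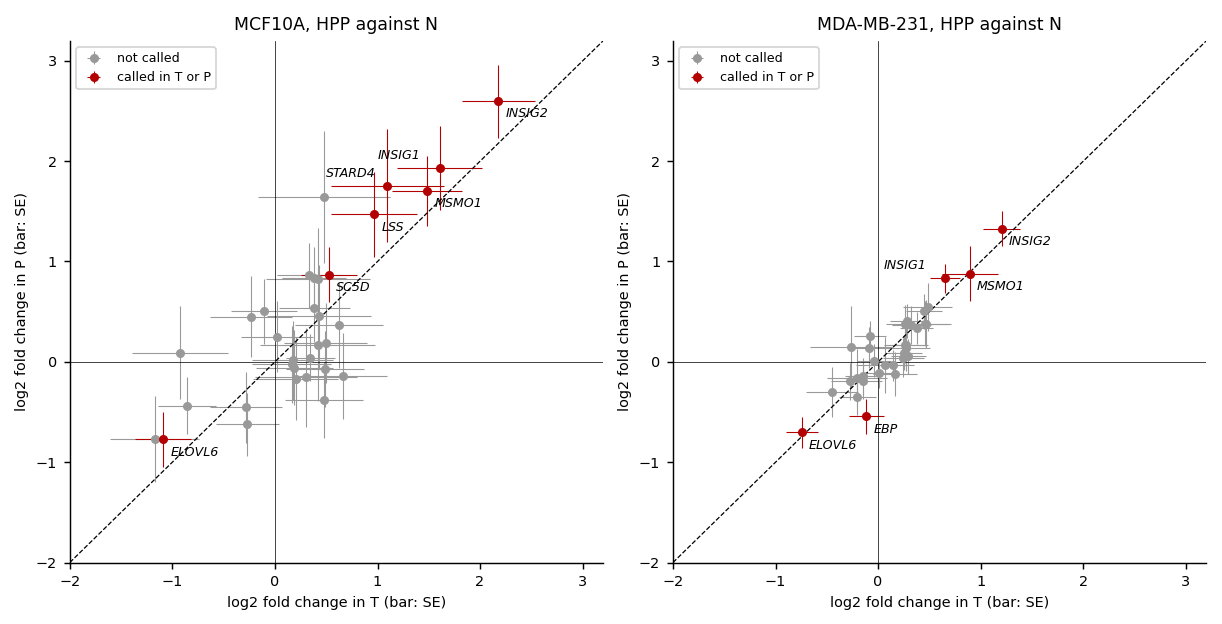
Each point is a member, with its HPP log2 fold change in total mRNA on the horizontal axis and in polysomal mRNA on the vertical axis, for each line, and the diagonal marks equal change. INSIG2, at 2.18 and 2.6 in MCF10A cells and at 1.2 and 1.33 in MDA-MB-231 cells, is the member farthest from 0 in both fractions.

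Before treatment, FADS2 and EBP were called higher on polysomes than in total mRNA in MDA-MB-231 cells, and with culture as a block only the EBP call was lost. In MCF10A N the test of P against T called 0 members by edgeR, 0% of all genes being called, and 0 by DESeq2. At an unadjusted p under 0.05 there were 4 members, beside 1660 of the 13124 genes. In MDA-MB-231 N it called 2 members higher in P, EBP by 0.61 ± 0.17 (adjusted p = 0.0322) and FADS2 by 0.70 ± 0.18 (adjusted p = 0.02), 6.06% beside 13.1% of all genes. DESeq2 added ACAT2, MVD, FDPS and NSDHL, and another scaling (RLE factors) added ACAT2, MVD and FDPS. Without the filter on low counts ACAT2, FDPS, LSS and NSDHL were also called higher in P and FASN lower (-0.56, adjusted p = 0.0448). FADS2, the delta-6 fatty acid desaturase, stood at 82.5 and 97.2 CPM in T and 125.0 and 166.9 in P. The P libraries of FADS2 were both above its T libraries, and those of EBP likewise. T and P libraries came from the same cultures, and with culture as the replicate block FADS2 kept its call (0.69, adjusted p = 0.0209) and EBP did not (0.61, adjusted p = 0.0566). The EBP call was lost without either T replicate or P replicate 1, and the FADS2 call without either T replicate or P replicate 2.

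The levels of some members differed between the lines before treatment. In normoxic total mRNA 11 of the 33 members were called, 33.3% beside 40.7% of the 14298 genes tested in the joint fit of all 32 libraries. Of these, 7 were higher in MDA-MB-231 cells: ACAT2, the cytosolic acetoacetyl-CoA thiolase, by 1.92 ± 0.33 (adjusted p = 8.45e-05), INSIG1 by 1.92 ± 0.35 (adjusted p = 0.000123), FADS1, the delta-5 desaturase, by 1.38 ± 0.26 (adjusted p = 0.000232), FADS2 by 1.2 ± 0.41 (adjusted p = 0.024), ELOVL6 by 1.16 ± 0.22 (adjusted p = 0.000254), SC5D by 1.14 ± 0.24 (adjusted p = 0.000677) and STARD4 by 1.12 ± 0.42 (adjusted p = 0.0382). The 4 lower in MDA-MB-231 cells were EBP at -1.27 ± 0.35 (adjusted p = 0.00558), SQLE at -1.14 ± 0.31 (adjusted p = 0.00517), ACSS2, which makes acetyl-CoA from acetate, at -0.90 ± 0.33 (adjusted p = 0.0355) and PMVK, the phosphomevalonate kinase, at -0.88 ± 0.32 (adjusted p = 0.035). ACAT2, EBP, ELOVL6, FADS1, INSIG1 and SC5D kept their calls without any library of the 2 groups, and ACSS2, PMVK and STARD4 lost theirs in each such fit. FADS2 lost its call in 3 of 4 such fits, and SQLE lost its own without MDA-MB-231 replicate 1. With the replicate number as a block, STARD4 and ACSS2 lost their calls between the lines. MVK (0.83, adjusted p = 0.019), TM7SF2 (1.46, adjusted p = 0.0146) and SCD (1.025, adjusted p = 0.0406) then passed, each higher in MDA-MB-231 cells. The tables of the lines were deposited separately, so line cannot be told apart from any batch between them.

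Levels per length, as RPKM (CPM divided by the exon length in kilobases) scaled jointly over both lines, ranged widely among the members. In normoxic total mRNA of MCF10A cells the highest were PMVK at 68.9 and 70.5 RPKM, FDPS, the farnesyl diphosphate synthase, at 65.1 and 59.0, EBP at 56.9 and 52.8 and ACLY, the ATP citrate lyase, at 52.7 and 55.2. The lowest was TM7SF2, a sterol reductase, at 0.935 and 0.833 RPKM. In MDA-MB-231 cells the highest were FDPS at 57.9 and 62.5 RPKM, ACAT2 at 53.4 and 58.6, ACLY at 47.9 and 46.4, PMVK at 36.4 and 39.5 and SCD at 38.8 and 35.4, and the lowest was again TM7SF2 at 2.08 and 1.68. INSIG1 stood at 7.34 and 7.84 RPKM in MCF10A cells and at 28 and 29.5 in MDA-MB-231 cells, and INSIG2 at 5.07 and 4.07 and at 8.25 and 6.30. Of the 32 neighbouring pairs in the order of levels, 21 had overlapping replicates in MCF10A cells and 18 in MDA-MB-231 cells, so most neighbours in that order did not differ beyond their spread.

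**Figure D5:**
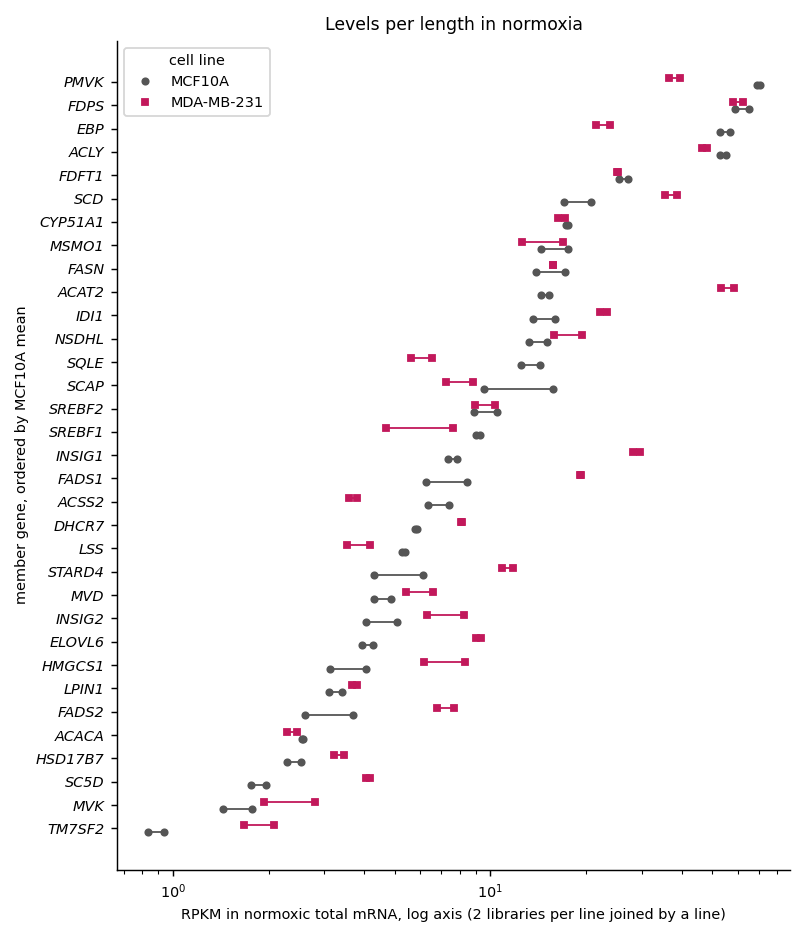
RPKM of each member in normoxic total mRNA, on a log axis, with circles for MCF10A and squares for MDA-MB-231 cells and a line joining the 2 replicates. ACAT2, INSIG1 and FADS1 stand well to the right in MDA-MB-231 cells and EBP and SQLE to the left, while FDPS, FDFT1 and CYP51A1 lie close together.

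The edgeR test found no member whose response to a treatment differed between the lines after adjustment, and INSIG2 in HPP P passed by other fits. The joint edgeR test of that difference called 0 members in H T, NPP T, HPP T, H P, NPP P and HPP P, beside 0.266%, 0.056%, 3.31%, 0.329%, 0.126% and 3.6% of all genes. At an unadjusted p under 0.05 it found 2, 1, 1, 3, 1 and 5 members in the same order. Of all 14298 genes it found 1068, 591, 2200, 928, 629 and 2392. DESeq2 called 0 members in each but HPP P, where it called 1, INSIG2. For INSIG2 in HPP P, the response in MDA-MB-231 cells was lower than that in MCF10A cells by a difference of -1.29 ± 0.38 (adjusted p = 0.0666). DESeq2 gave -1.32 (adjusted p = 0.0113) and the replicate block -1.26 (adjusted p = 0.0152), and the block also called STARD4 there (-1.37, adjusted p = 0.04). For INSIG1 the difference between the lines was -1.18 ± 0.47 in H T and -1.25 ± 0.48 in H P, and 1.08 ± 0.48 in NPP T and 1.23 ± 0.48 in NPP P, all with adjusted p of at least 0.515. Over the comparisons of a treatment with normoxia, 7 members were called in MCF10A cells, 21.2% beside 25.2% of all genes, and 6 in MDA-MB-231 cells, 18.2% beside 23.3%. Of the 33, 4 were called in both lines and 24 in neither, 12.1% and 72.7% beside 11.8% and 62.8% of the 12374 genes tested in both lines.

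Replicates were closer in MDA-MB-231 than in MCF10A cells. The ratio of the larger to the smaller replicate had a median over groups and members of 1.17 in MDA-MB-231 and 1.34 in MCF10A cells, and 17 members differed more than 2-fold between replicates of some group in MCF10A cells and 1 in MDA-MB-231 cells. The members took 0.151% to 0.208% of protein-coding counts in MCF10A T and 0.228% to 0.323% in MDA-MB-231 T. Polysomal libraries gave 0.175% to 0.345% and 0.278% to 0.402%. The lowest of these shares was that of MCF10A NPP T replicate 2, which also had the lowest TMM factor of 0.764, and the highest in MCF10A cells was that of HPP P replicate 2. Without HPP replicate 2 the members called in MCF10A HPP were 1 in T and 1 in P, INSIG2 in each. With NPP T replicate 2 left out of the fit, a library of neither group, the members called in MCF10A HPP were 6 in T and 10 in P, and STARD4 and ACACA in T and HMGCS1, SQLE, CYP51A1 and ELOVL6 in P were then added, while INSIG2 was called in H in both fractions. That fit was chosen after the values were seen. The share of all genes called without either of these libraries is not given here. The counts are therefore not read as a result about the members.

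The labels of treatment and line were read against known genes. Of 8 reference genes induced by hypoxia, 6 rose in MCF10A H T and 5 in MDA-MB-231 H T, where 1.39% and 0.977% of all genes rose. CA9, a carbonic anhydrase induced by hypoxia-inducible factors, ranged from 7.72 to 26.9 CPM in the normoxic libraries of MCF10A cells and from 522 CPM upwards in their hypoxic libraries. In MDA-MB-231 cells CA9 ranged from 0.0568 to 1.02 CPM and from 13 to 34.6. Of 5 MCF10A markers, the summed level was 1889 to 9527 CPM in MCF10A and 13.1 to 58.9 in MDA-MB-231 libraries. The epithelial cadherin CDH1 was at most 0.361 CPM in MCF10A libraries, so this marker of epithelial cells was all but absent. Of 5 MDA-MB-231 markers, the summed level was higher in MCF10A libraries, at 8009 to 28350 CPM, than in MDA-MB-231 libraries, at 4023 to 7258. TGFBI carried most of the difference, at 5801 to 18490 CPM in MCF10A and 24.6 to 53.9 in MDA-MB-231 libraries, and SPARC was likewise higher in MCF10A libraries, at 91.7 to 203 CPM against at most 0.796. AXL, at 225 to 401 CPM in MCF10A and 700 CPM upwards in MDA-MB-231 libraries, and ZEB1, at 4.69 to 32.6 and 43.6 to 88.2, were higher in MDA-MB-231 libraries, and the ranges of VIM overlapped. The receptors ESR1 and PGR together reached at most 0.393 CPM in MCF10A and 0.682 in MDA-MB-231 libraries. In MCF10A HPP, 3 of the 4 tested MCF10A markers (KRT14, KRT17 and ITGB4) rose in T and in P, where 7.43% and 10.2% of all genes rose. INSIG1, INSIG2 and MSMO1 rose there too, and the part of the markers in those results was not tested.

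Other genes of lipid metabolism were read from 5 lists that hold no member, of which 63 genes were tested in MCF10A and 65 in MDA-MB-231 cells. In HPP, 1 of 63 was called in MCF10A T (1.59% beside 14.9% of all genes) and 9 in P (3 rose and 6 fell, 14.3% beside 22.2%). In MDA-MB-231 cells 8 of 65 were called in T (4 rose and 4 fell, 12.3% beside 13.2%) and 10 in P (4 rose and 6 fell, 15.4% beside 19.4%), so each share lay below that of all genes. Of 13 genes that draw isoprenoids from the mevalonate pathway, 4 fell in MCF10A P and 3 in MDA-MB-231 P, 30.8% and 23.1% beside 11.9% and 9.73% of all genes that fell. RABGGTB, a subunit of the geranylgeranyl transferase of Rab proteins, fell by 1.70 ± 0.33 in MCF10A P, and its change in MDA-MB-231 P was -1.14 ± 0.19, and PDSS1, which builds the tail of coenzyme Q, changed by -1.31 ± 0.29 and -0.90 ± 0.16. None of the 11 genes of SREBP processing and degradation was called by edgeR in MCF10A HPP, and DESeq2 called 2 in T and 1 in P. There were 3 at an unadjusted p under 0.05 in each fraction, beside 3821 in T and 4750 in P of all 13124 genes. UBE2G2, a ubiquitin-conjugating enzyme, fell in MDA-MB-231 HPP (-0.85 ± 0.14 in T). Among sterol export and trafficking genes, OSBP, an oxysterol-binding lipid carrier, rose in MDA-MB-231 HPP by 0.64 ± 0.17 in T and 0.72 ± 0.17 in P, and 0 of the 8 tested in MCF10A HPP were called by edgeR, with 1 in T and 3 in P at an unadjusted p under 0.05 and 0 and 2 by DESeq2.

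Of the list on elongation, glycerolipids and lipid droplets, HILPDA, a hypoxia-induced lipid droplet protein, rose in MCF10A H by 2.14 ± 0.42 in T and 1.94 ± 0.41 in P, and in MDA-MB-231 H P by 0.73 ± 0.17. GPAM, which starts glycerolipid synthesis, fell in MDA-MB-231 HPP T (-1.0 ± 0.23). G0S2, an inhibitor of the triglyceride lipase, stood at 30.6 to 81.1 CPM in normoxic and 42.9 to 166 in hypoxic MDA-MB-231 libraries, and at 0 in every normoxic MCF10A library. It rose in MDA-MB-231 H P by 1.10 ± 0.22 and fell in HPP against H in P (-1.73 ± 0.23). Of the 15 genes of fatty acid oxidation, ACADVL, the very long-chain acyl-CoA dehydrogenase, rose in MCF10A HPP by 1.24 ± 0.27 in T and 1.44 ± 0.27 in P. In MDA-MB-231 HPP T 0 of 15 were called by edgeR and 0 by DESeq2. Unadjusted p was under 0.05 for 2 of them, beside 3886 of all 13510 genes.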

How the data were processed

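Total and polysomal mRNA of MCF10A and MDA-MB-231 cells was sequenced as poly(A)-selected, unstranded libraries. The authors aligned the reads with STAR and deposited, per line, a table of RSEM expected counts per gene for 16 libraries, without scaling. All deposited counts were whole numbers, so they were used as deposited. The study's text names GRCh38 and the labels name GRCh37. Gene identifiers in the tables include 5581 of a range introduced with GRCh38, and lengths and positions here come from a GENCODE annotation of GRCh38. Tool versions of the authors are not given here.

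Samples were grouped by line, fraction and treatment from the labels. Protein-coding genes, 97.39% to 99.18% of counts, were kept, and genes with low counts were removed with filterByExpr. Differences were tested in R 4.3.3 with edgeR 4.0.16 (TMM factors, quasi-likelihood F test, Benjamini-Hochberg adjustment over all tested genes, threshold 0.05) in a fit of the 16 libraries and 8 groups of a line, with 8 residual degrees of freedom, and for the lines in a joint fit of 32 libraries with 16. The SE is the absolute log2 fold change divided by the square root of F. The common biological variation between replicates (edgeR's BCV) was 0.325 for MCF10A and 0.15 for MDA-MB-231 cells. A permutation of 2 against 2 libraries cannot go below a two-sided p of 0.333, so no permutation test was used. Deviations of same-numbered T libraries of MCF10A cells correlated across genes at 0.283 to 0.778, above 0.1 in 6 of 6 pairs, and T and P libraries shared cultures by the titles. The result with a replicate block is therefore given there where it changes a call. Alternatives were DESeq2 1.42.0, RLE factors, no filter, a replicate block, a length offset, a z-score rule for Te and leaving out each library. RPKM used the union exon length and joint TMM factors. On that joint scale the normoxic T levels of MDA-MB-231 against MCF10A cells shift by -0.467 (log2) from the CPM scaled within each line. Of the members, 16 share exon bases with another gene listed in the tables and 4 share at least 10% (ACAT2, FDPS, HMGCS1 and IDI1), and such reads cannot be assigned by strand. The procedure was also run on simulated counts, with results not given here. Same-numbered libraries shared no deviations in the simulation, so that run does not cover them.

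The members, the lists and the markers were chosen with earlier results of these data known. Members given in full are the 5 control genes and the 9 others called in the most of the 12 comparisons with normoxia, ties going to the largest HPP change, and of other lists at most 3 called genes per comparison are named.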

Additional observations from a re-analysis of the deposited data

How the results depend on the processing

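Of 40 calls of members, none turned direction under any alternative. Of these, 12 were kept whichever library of the groups compared was left out, and 7 were lost in every such fit (84 of 160 such values kept the call). DESeq2 lost 1 of the 40 (PMVK between lines), RLE factors 2 (PMVK and ACSS2 between lines), no filter 2 (SC5D in MCF10A and EBP in MDA-MB-231 HPP P) and the replicate block 3 (EBP in P against T, STARD4 and ACSS2 between lines). The length offset, run only for the 27 calls between treatments, lost 1 (SC5D). Without the filter the median log2 fold change of all genes moved to between -0.149 and 0.233 across comparisons, so the counts under it are relative to that shift. The cause of these changes was not tested.

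The counts of members called that moved by over 1.5 times were these. In MCF10A H T, 0 became 1 with DESeq2, RLE factors, no filter and the replicate block, and 2 with the length offset. In MCF10A H P, 0 became 1 with DESeq2, RLE factors, no filter and the length offset, and 2 with the block. INSIG2 was called in H in both fractions under each of these. In MCF10A NPP P, 0 became 1 with the length offset. In MCF10A HPP T, 4 became 8 with the block. For HPP against H in MCF10A cells, 0 in T became 1 with DESeq2 and the block and 2 with the length offset, and 0 in P became 2 with DESeq2 and the block and 1 with the length offset. In MDA-MB-231 H T, 1 became 2 with DESeq2 (LPIN1 added) and the block (SREBF1) and 3 with no filter (SREBF1 and MSMO1), and in H P, 1 became 3 with DESeq2 (SREBF1 and LPIN1 added) and 2 with no filter and the block (SREBF1). In MDA-MB-231 HPP T, 4 became 8 with no filter (SREBF2, SQLE, LSS and SC5D added). For HPP against H in MDA-MB-231 cells, 1 in T became 2 with DESeq2 and with no filter, and 2 in P became 4 with the block. For P against T in MDA-MB-231 N, 2 became 6 with DESeq2, 5 with RLE factors, 7 with no filter and 1 with the block by culture. For the difference between lines in HPP P, 0 became 1 with DESeq2 and 2 with the block (INSIG2, and STARD4 with the block). Smaller moves were as follows. MCF10A HPP T went from 4 to 5 with DESeq2 and the length offset, and MCF10A HPP P from 6 to 9 with DESeq2, 8 with the block, 7 with the length offset and 5 with no filter. MDA-MB-231 HPP P went from 5 to 6 with DESeq2 and the block and 7 with no filter (SQLE, SC5D and STARD4 added, EBP lost), and NPP P and HPP against H P from 2 to 3 with no filter. Lines in normoxic T went from 11 to 14 with DESeq2 and 12 with RLE factors, no filter and the block. The z-score rule for Te called 0 members in each of its 6 comparisons. The share of all genes called is given only for the edgeR fit with TMM factors and the filter and without a block. The counts under the alternatives are therefore not set against all genes.

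With libraries left out, the count ranged in MCF10A cells from 0 to 1 in H T and in H P, 1 to 6 in HPP T, 1 to 10 in HPP P, 0 to 1 in HPP against H T and 0 to 2 in HPP against H P. In MDA-MB-231 cells it ranged from 0 to 1 in H T, 0 to 2 in H P, 0 to 0 in NPP T, 1 to 2 in NPP P, 2 to 2 in HPP T, 2 to 5 in HPP P, 0 to 4 in HPP against H T, 0 to 5 in HPP against H P and 0 to 2 in P against T. Between lines it ranged from 0 to 1 in NPP T, 0 to 2 in HPP P and 6 to 8 in normoxic T. A group with 1 library left is assumed to vary like the others.

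The labels number replicates 1 and 2 in each group but do not say that a number marks a shared batch. Except for T libraries of MCF10A cells, deviations of same-numbered libraries did not all correlate across genes above 0.1, at -0.187 to 0.282 in MDA-MB-231 T (4 of 6 pairs above 0.1), -0.1 to 0.635 in MCF10A P (3 of 6) and 0.00232 to 0.347 in MDA-MB-231 P (4 of 6). T and P libraries of the same culture gave -0.25 to 0.214 and 0.00239 to 0.348. With groups of 2 libraries, changes smaller than the replicate spread were not detectable.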
